A study of Mus musculus with 2 samples.

Results

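Methylation of 10 genes of fat cell formation and glucose transport, Slc2a4, Pparg, Cebpa, Cebpb, Cebpd, Ppargc1a, Adipoq, Fabp4, Ebf2 and Ucp1, was compared between wt and βerko mouse embryonic fibroblasts (MEFs). For each gene, all cytosines covered in both cell types were taken from the gene body and from 2 kb upstream of its start, here called the promoter. This gave 533 positions of 826937 in the whole screen, and each of the 10 genes had at least 1. The wt MEFs were C57BL/6 wildtype cells and the βerko MEFs were C57BL/6 cells of the genotype ESR2 -/-, which lack oestrogen receptor beta (ERβ). Both were grown in the same high glucose medium, and neither was labelled as treated or as differentiated into fat cells. Each cell type gave 1 library of reduced representation bisulfite sequencing (RRBS), made from 3 pooled batches of DNA. RRBS reads CpGs near MspI sites (CCGG), and methylation is the percentage of reads at a cytosine that were still read as cytosine. There were no replicate libraries, so that no difference between the genotypes was tested, and differences between cultures or animals cannot be told apart from differences of genotype.

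Fat cells form through a cascade of transcription factors. Cebpb and Cebpd act early and switch on Pparg and Cebpa, which maintain each other and activate genes of the mature fat cell such as Adipoq (adiponectin, a secreted hormone), Fabp4 (a fatty acid carrier) and Slc2a4 (Glut4, the insulin-responsive glucose transporter). Ebf2 marks fat precursors and favours the brown fat programme, in which the coactivator Ppargc1a and the mitochondrial uncoupling protein Ucp1 take part. CpG-rich promoters are usually unmethylated whether or not the gene is used, CpG-poor promoters of tissue-specific genes are often methylated in other cell types, and bodies of genes are often methylated. The study set out from an earlier report of its authors, in which a Glut4 promoter CpG was hypermethylated without ERβ. Slc2a4 is therefore the member with a stated question.

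The sequences below show where the compared CpGs lie. They are read 5′ to 3′ on the strand of the gene in NCBIM37 (mm9), and capitals mark CpGs with a value in both libraries. The first is the covered part of the Slc2a4 promoter (chr11:69762075-69762163, minus strand), near 0 % in both cell types. The next pair contrasts the Pparg promoter (chr6:115311035-115311201, plus strand), which had little methylation, with the start of its first intron (chr6:115311600-115311846, plus strand), where methylation was lower in βerko MEFs. The Cebpa sequence is the part of its coding exon with the lowest values relative to wt (chr7:35905142-35905271, plus strand). The last pair comes from Ebf2 introns with higher methylation in βerko MEFs (chr14:67927885-67927999 and chr14:67981054-67981141, plus strand).
Slc2a4 promoter: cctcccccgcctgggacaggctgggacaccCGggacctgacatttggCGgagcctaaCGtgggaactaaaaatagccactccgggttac
Pparg promoter: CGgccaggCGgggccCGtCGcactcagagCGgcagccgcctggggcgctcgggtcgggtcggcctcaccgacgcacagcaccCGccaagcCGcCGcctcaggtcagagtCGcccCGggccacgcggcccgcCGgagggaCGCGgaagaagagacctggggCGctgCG
Pparg intron 1: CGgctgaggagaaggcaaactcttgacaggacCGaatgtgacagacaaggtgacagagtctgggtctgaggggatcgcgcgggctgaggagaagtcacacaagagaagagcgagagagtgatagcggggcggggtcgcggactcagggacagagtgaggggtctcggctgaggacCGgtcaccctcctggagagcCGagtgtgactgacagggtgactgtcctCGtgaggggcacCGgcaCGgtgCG
Cebpa coding exon: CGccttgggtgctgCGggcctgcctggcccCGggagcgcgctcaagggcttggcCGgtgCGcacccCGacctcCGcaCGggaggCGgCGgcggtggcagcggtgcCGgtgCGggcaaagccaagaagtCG
Ebf2 intron, higher stretch: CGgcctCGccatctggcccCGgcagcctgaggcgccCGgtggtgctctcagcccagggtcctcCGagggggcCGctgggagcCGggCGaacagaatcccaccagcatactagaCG
Ebf2 intron, DMPs: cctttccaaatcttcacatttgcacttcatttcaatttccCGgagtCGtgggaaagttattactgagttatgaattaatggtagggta
Of the CpGs in these stretches, 3 of 5 were covered in the Slc2a4 promoter, 15 of 25 in the Pparg promoter, 8 of 17 in the Pparg intron and 13 of 17 in the Cebpa exon. In the Ebf2 introns 9 of 10 and 2 of 2 were covered.

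Among the 533 positions, 84 (15.8 %) were lower in βerko MEFs by more than 20 percentage points and 18 (3.38 %) were higher by more than 20 points. Over all covered positions these shares were 10.2 % and 6.6 %. The lower positions lay almost entirely in 3 genes, with 39 in Cebpa, 24 in Ebf2 and 18 in Pparg. In the other 7 genes 3 of 258 positions were lower and 3 were higher, 1.16 % each. Of the 131 positions above 80 % in wt MEFs, 46 were lower by more than 20 points, which is 35.1 % against 15.2 % of all such positions in the screen. Of the 325 positions below 20 % in wt MEFs, 4 were higher by more than 20 points, which is 1.23 % against 3.5 %. Neighbouring positions share DNA fragments and reads, so the counts are not counts of independent events.

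The 98 promoter positions averaged 16.0 % in wt and 15.8 % in βerko MEFs, and the 435 body positions averaged 35.2 % and 27.6 %. With at least 3 positions required, 7 promoters and 9 bodies could be compared. No promoter mean differed by more than 20 points, where 5.66 % of 8711 protein-coding genes were lower and 1.04 % higher by that rule. The bodies of Pparg and Cebpa were lower by more than 20 points, where 3.43 % of 15648 genes were lower and 1.04 % higher. The Pparg body was read only in its first intron, from +361 to +1027 bp. For Cebpa the median difference over body positions was -17.1 points and did not pass 20 points. The median difference over the member bodies, βerko minus wt, was -0.03 points, and over all gene bodies it was -0.34 points. For member promoters it was 0.24 points and for all promoters -0.17 points. Ppargc1a and Fabp4 had no covered promoter position, and Ppargc1a, Adipoq, Fabp4 and Ucp1 had fewer than 10 positions each.

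**Figure D1:**
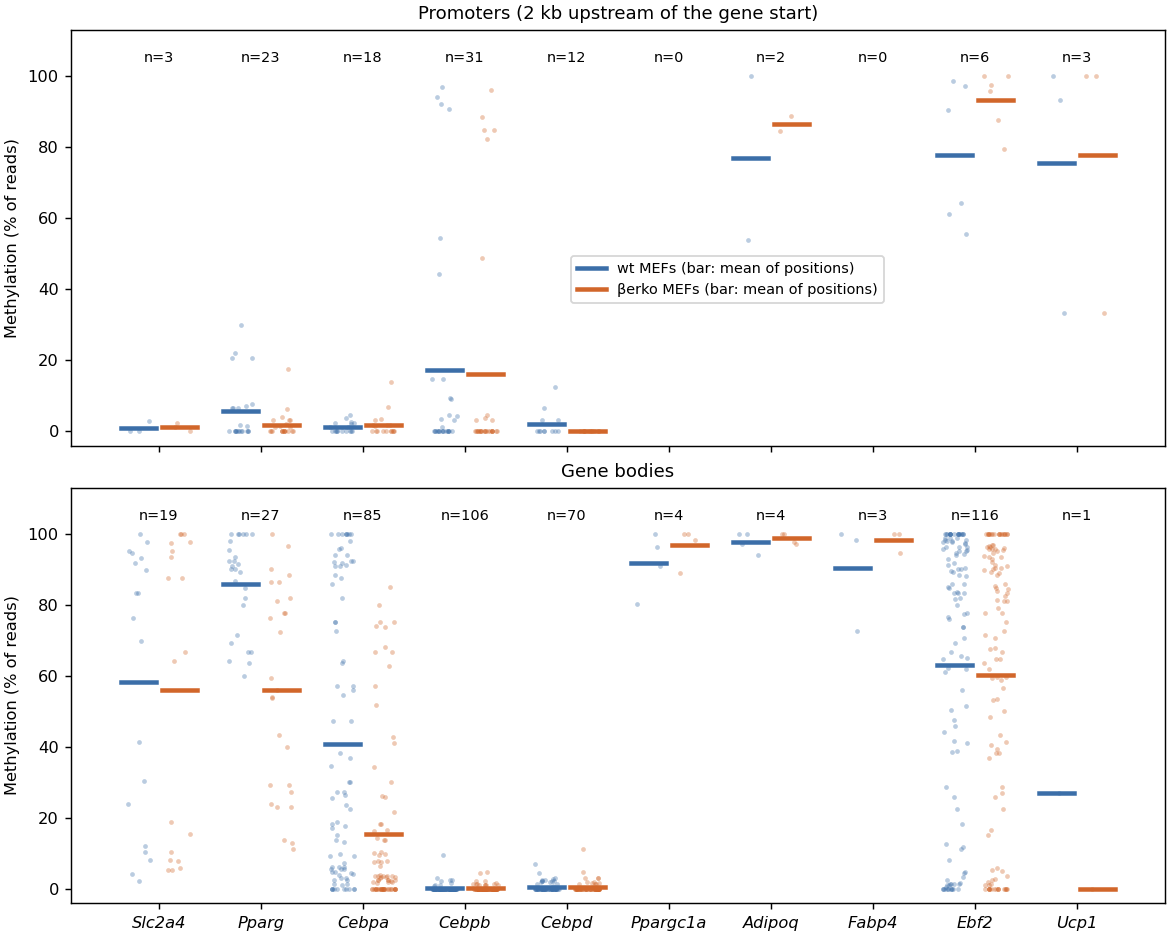
Methylation (% of reads) of every covered position in the promoters (upper panel) and bodies (lower panel) of the 10 genes in wt (blue) and βerko (orange) MEFs, with bars for the mean over positions and the number of positions above. The bars lie far apart in the bodies of Pparg (85.9 and 56.1 %) and Cebpa (40.9 and 15.3 %), and for the single body position of Ucp1.

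**Figure D2:**
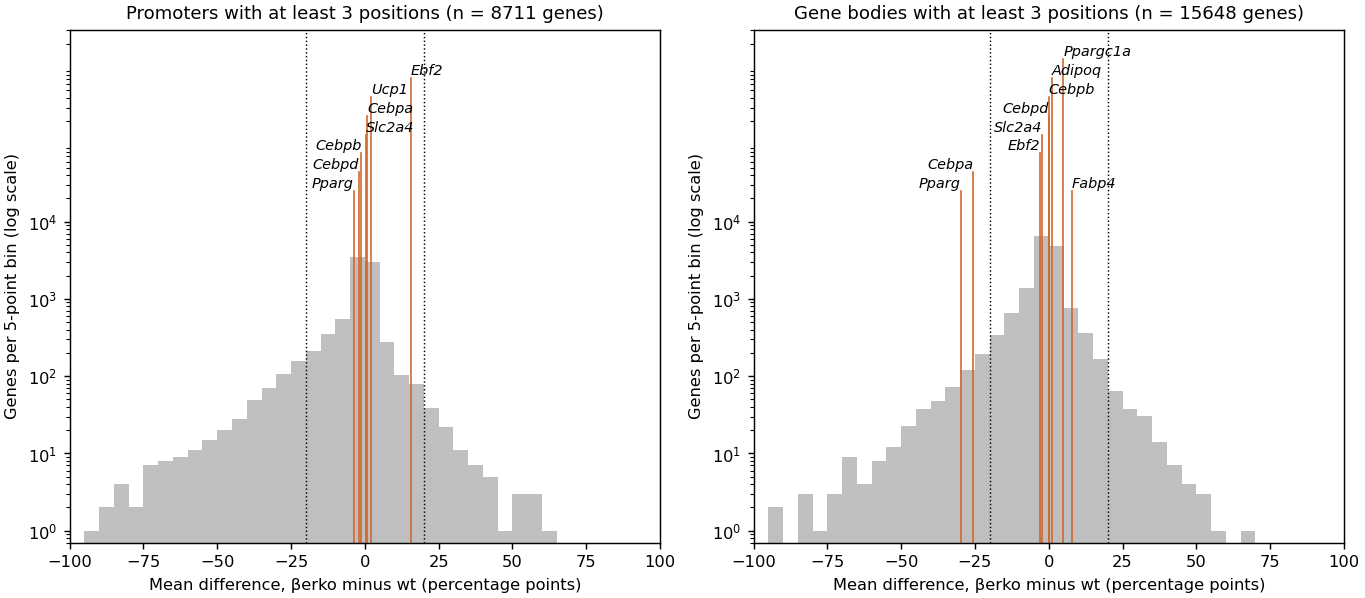
Number of genes (log scale) by mean difference in methylation, βerko minus wt, in percentage points, for 8711 promoters and 15648 gene bodies with at least 3 positions. Orange lines mark the members at their difference and end at heights chosen only to separate the names, and dotted lines mark 20 points in either direction, beyond which, among the members, only the bodies of Cebpa and Pparg lie.

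The only repeat measurement within a library is the other strand of the same CpG. Over 70667 CpGs covered on both strands, the strands differed by more than 20 points at 8.85 % of the CpGs in wt and at 7.72 % in βerko MEFs, with medians of 1.80 and 1.35 points. Among CpGs of intermediate methylation (mean of the strands from 20 to 80 %), the shares were 38.5 and 39.2 % and the medians 14.3 and 14.4 points, so that single intermediate values carry a larger strand difference. Among the 56 member CpGs with both strands, 8 were lower and 2 were higher in βerko MEFs by more than 20 points on both strands. These are 14.3 and 3.57 %, against 7.62 and 2.85 % of all CpGs with both strands. At 7 (12.5 %, against 11 % of all) the difference passed 20 points on 1 strand only, and at none did the strands pass it in opposite directions. Read numbers were given only for differentially methylated positions (DMPs), so that the error of the other values is unknown.

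Slc2a4 (ENSMUSG00000018566.7, chr11:69756045-69761690, minus strand) had 22 covered positions. Its 3 promoter positions, shown in capitals above, were methylated at 0, 3.03 and 0 % in wt and at 2.47, 1.27 and 0 % in βerko MEFs, at -443, -426 and -416 bp. The promoter was thus close to unmethylated in both cell types at the positions read, and 3 of its 50 CpGs within 2 kb were read. This holds for 2 kb upstream of the gene start. Windows upstream of every annotated transcript start also take in the 9 highly methylated positions from +2598 to +2858 bp described below. No coordinate of the CpG linked earlier to ERβ is given in the sources used here, and whether it is among the 3 is unknown.

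Just past the Slc2a4 start, 10 positions in the 5′ UTR, first exon and intron averaged 27.8 % in wt and 20.8 % in βerko MEFs. Among them, the largest difference was at 69761637, +53 bp, with 41.4 % in wt and 15.4 % in βerko MEFs, and its neighbour at +59 bp had 10.3 % and 7.69 %. The next 5 positions, from +91 to +118 bp, had 2.17, 8, 24.0, 4.17 and 12 % in wt MEFs. In βerko MEFs they had 5.71, 5.41, 18.9, 5.41 and 8.11 %, so none of them differed by more than 5.08 points. At +231 and +240 bp wt MEFs had 76.4 and 69.7 % and βerko MEFs 64.1 and 66.7 %. At +257 bp, in the first intron, it was 30.3 % in wt and 10.3 % in βerko MEFs, 20.1 points lower. Of these 10 positions 8 were lower and 2 higher in βerko MEFs, and 2 passed 20 points.

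Farther into Slc2a4, 9 positions in coding exons and an intron, from +2598 to +2858 bp, were highly methylated. In wt MEFs they had 97.7, 93.2, 89.7, 83.3, 100, 94.4, 95, 83.3 and 91.7 %. In βerko MEFs they had 100, 97.4, 97.6, 93.6, 100, 100, 95.1, 87.5 and 87.5 %. The means of 92.0 and 95.4 % differed by 3.36 points, and the largest single difference was 10.2 points at 69758949. Slc2a4 had no DMP and no position higher by more than 20 points in βerko MEFs.

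The early factors Cebpb and Cebpd had almost no methylation in either cell type, apart from part of the Cebpb promoter. Cebpb (ENSMUSG00000056501.3, chr2:167514415-167515918, plus strand) had 106 body positions with means of 0.229 % in wt and 0.248 % in βerko MEFs, the highest 9.38 % in wt and 4.65 % in βerko MEFs. Its 31 promoter positions had means of 17.4 and 16.2 %. Methylation there was carried by 6 positions above 20 % in wt MEFs, from -1995 to -479 bp, in a window that overlaps the gene Tmem189. At 167513399, -1016 bp, wt MEFs had 54.6 % and βerko MEFs 82.5 %, the only Cebpb position past 20 points. The promoter position with the largest difference downwards, at -488 bp, had 14.8 % in wt and 0 % in βerko MEFs.

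Cebpd (ENSMUSG00000071637.4, chr16:15887379-15888559, plus strand) carries no coding sequence in the annotation used, which lists it as a pseudogene. Its 70 body positions had means of 0.547 % in wt and 0.512 % in βerko MEFs, and its 12 promoter positions 2.14 % in wt and 0 % in βerko MEFs. No Cebpd position was above 12.5 % in either cell type, and 55 of 82 were at 0 % in both. The largest differences were 12.5 points lower at -60 bp and 4.13 points higher at +364 bp.

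Pparg, the nuclear receptor that commits cells to the fat lineage (ENSMUSG00000000440.6, chr6:115311239-115440419, plus strand), had 50 covered positions, all around its upstream transcript start. The 23 promoter positions had means of 5.72 % in wt and 1.91 % in βerko MEFs, and 10 of them were at 0 % in both. The values above 20 % in wt MEFs lay next to the start. At -73, -63, -44 and -39 bp methylation was 20.6, 29.9, 22.2 and 20.7 % in wt MEFs. In βerko MEFs the same positions had 6.25, 3.12, 2.13 and 17.7 %, and those at -63 and -44 bp were lower by 26.8 and 20.1 points.

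In the first intron of Pparg, 27 positions from +361 to +1027 bp averaged 85.9 % in wt (SD 13.3 over positions) and 56.1 % in βerko MEFs (SD 29.2). Of these 25 were lower in βerko MEFs, 16 by more than 20 points, and 1 was higher. The difference was largest close to the start. The 9 positions from +361 to +606 bp had means of 76.0 and 32.8 %, the 9 from +784 to +896 bp had 88.4 and 57.0 %, and the 9 from +957 to +1027 bp had 93.2 and 78.4 %. The largest single difference was at 115311600, the first CpG of the intron sequence above, with 100 % in wt and 23.1 % in βerko MEFs. Both strands were read at the CpG at +871 bp, with 60 and 80 % in wt and 12.8 and 13.6 % in βerko MEFs. No Pparg position met the criteria of a DMP. Pparg also has a downstream promoter that gives the fat-specific Pparg2 form. The downstream transcript start in the annotation, at 115372084, had no covered position within 2 kb, the nearest being 59818 bp away.

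Cebpa (ENSMUSG00000034957.9, chr7:35904312-35906945, plus strand), the partner of Pparg and a gene of a single exon, had 103 covered positions. Its 18 promoter positions were near 0 %, with means of 1.13 % in wt and 1.91 % in βerko MEFs and highest values of 4.48 and 13.8 %. The 85 body positions had means of 40.9 % in wt and 15.3 % in βerko MEFs, with 39 lower and 2 higher by more than 20 points. Methylation was higher farther along the gene, most so in wt MEFs. From +105 to +560 bp, 52 positions had means of 12.8 % in wt and 4.08 % in βerko MEFs. From +831 to +958 bp, 13 positions in the coding exon had 70.7 and 9.32 %, and 12 of them were lower by more than 20 points. From +1234 to +1466 bp, 20 positions in the 3′ UTR had 94.5 and 48.4 %, and 15 were lower by more than 20 points. All 33 positions past +700 bp were lower in βerko MEFs, although not all by more than 20 points.

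The stretch of the Cebpa coding exon printed above held 13 covered CpGs, each read on 1 strand. In order along the gene, methylation in wt MEFs was 75.0, 100, 75.0, 72.7, 63.6, 54.6, 81.8, 27.3, 90.9, 100, 57.1, 57.1 and 64.3 %. In βerko MEFs the same CpGs had 0, 14.3, 0, 13.8, 3.45, 3.45, 10.3, 3.45, 0, 3.45, 13.8, 3.45 and 51.7 %. The groups of values overlapped only through the eighth CpG in wt and the last in βerko MEFs. Where read numbers were given in this stretch, they ran from 4 to 11 in wt and from 7 to 29 in βerko MEFs. Against the general direction, 35904522 at +210 bp, also in the coding exon, had 0 % in wt and 30.0 % in βerko MEFs.

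**Figure D3:**
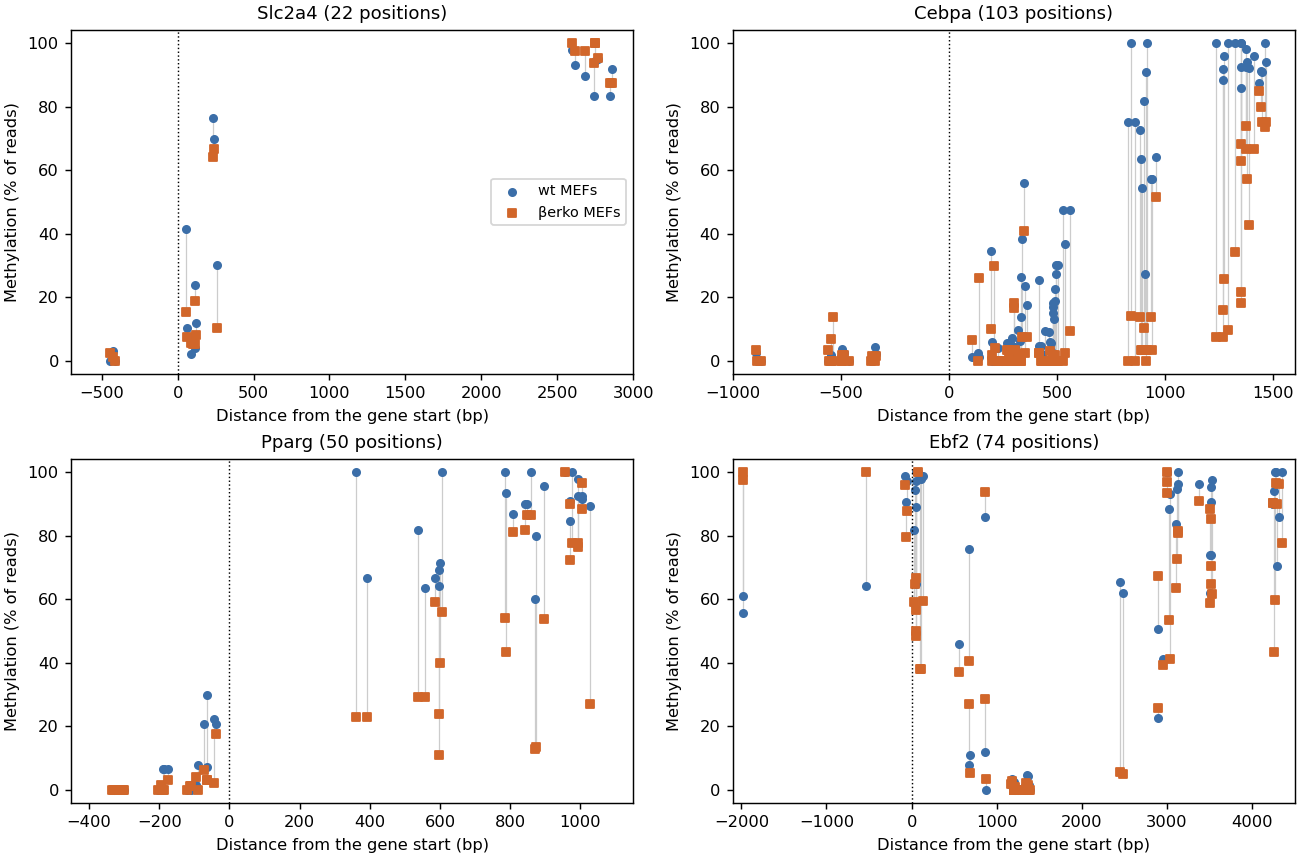
Methylation (% of reads) against distance from the gene start (bp, dotted line) in wt (blue circles) and βerko MEFs (orange squares) for Slc2a4, Cebpa, Pparg and the first part of Ebf2, with a grey line joining the values of a position. At 20 of the 22 Slc2a4 positions the cell types differ by at most 20 points, while those of Cebpa past +700 bp and of the Pparg intron lie lower in βerko MEFs.

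DMPs, defined by the study as more than 4 reads in both libraries, less than 20 % methylation in one and more than 80 % in the other, were found in Cebpa and Ebf2 and in none of the other 8 genes. The share of all genes that hold a DMP is not given here, so this count of genes has no comparison. Cebpa held all 8 hypomethylated DMPs among the 533 positions. The class made up 0.7 % of all covered positions (5787 of 826937). Those in the coding exon lay at 35905215, 35905226 and 35905229. At these, 9 of 11, 10 of 11 and 9 of 9 reads were methylated in wt MEFs, and 3, 0 and 1 of 29 reads in βerko MEFs. The other 5 lay in the 3′ UTR at 35905546, 35905579, 35905580, 35905605 and 35905664. In wt MEFs these had 17 of 17, 15 of 17, 22 of 24, 24 of 24 and 18 of 21 methylated reads. In βerko MEFs they had 3 of 40, 3 of 40, 10 of 62, 6 of 62 and 6 of 33. The positions 35905579 and 35905580 are the strands of the same CpG. Each of the 8 passed a two-sided Fisher's exact test of the reads, as did 0.642 % of all positions in that direction. The adjusted p-values of this test at the 8 ran from 1.91e-13 to 0.00469. Only DMPs could pass, however, and 5313 of the 5787 hypomethylated DMPs did. The 0.642 % therefore mostly reflects how few positions were DMPs, and a pass adds little to that selection. The test sets the reads of 1 library against those of the other and says nothing of the spread between cultures, and DMPs had been selected for their difference.

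The widest exact 95 % interval among these values was that of 35905215 in wt MEFs, from 48.2 to 97.7 %, and the highest upper bound in βerko MEFs was 35.5 %, at 35905664. Intervals of wt and βerko MEFs did not overlap at any of the 8, but these positions had been selected for a large difference, so this adds little. A further deposited position at 35905157 had 4 reads in wt MEFs and was left out by the criterion. It is the second CpG of the Cebpa stretch printed above and is still counted in the values of that stretch. The libraries were amplified by PCR and carried no molecular identifiers, and both the intervals and the tests therefore account for counting error alone.

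**Figure D4:**
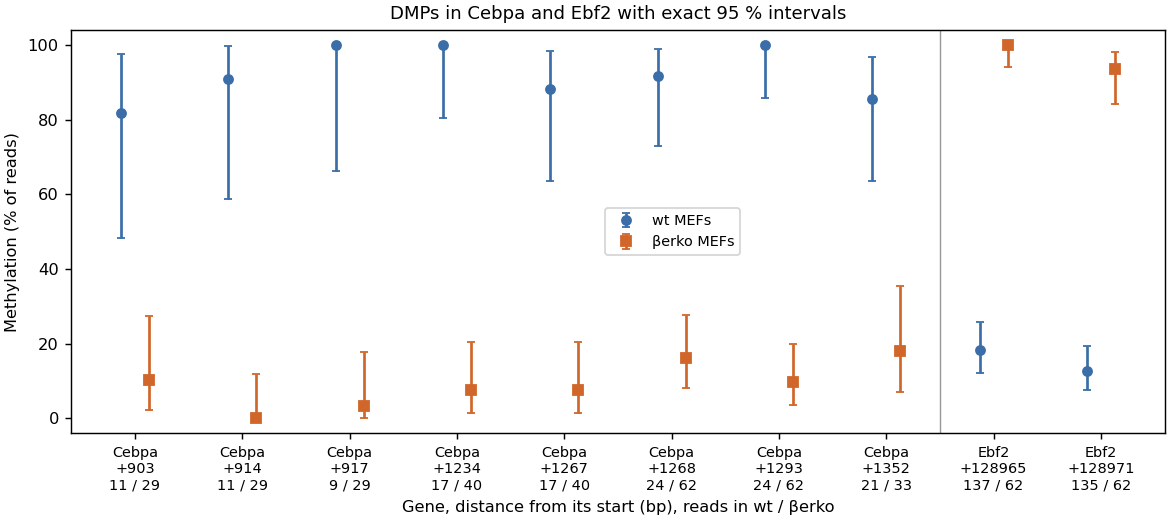
Methylation (% of reads) at the 8 DMPs of Cebpa and the 2 of Ebf2 in wt (blue circles) and βerko MEFs (orange squares), with exact 95 % confidence intervals and the reads in each library under each position. The Cebpa values are high in wt and low in βerko MEFs, those of Ebf2 the reverse, and no pair of intervals overlaps. The positions had been selected for such differences.

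Ebf2 (ENSMUSG00000022053.6, chr14:67852129-68048604, plus strand) had 122 covered positions in a window that overlaps the genes CT010493.1 and Gm6878. It differed in both directions, with 24 lower and 13 higher by more than 20 points. At the start of the gene methylation was lower in βerko MEFs. In the 5′ UTR, 10 positions from +28 to +137 bp had means of 92.2 % in wt and 58.1 % in βerko MEFs, and 8 were lower by more than 20 points. The largest of these differences was at 67852233, with 98.9 % in wt and 38.1 % in βerko MEFs. The CpG at +49 bp had 97.1 and 89.1 % on its strands in wt and 56.7 and 50 % in βerko MEFs.

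Farther upstream of Ebf2 the direction was opposite. At -1976, -1975 and -530 bp wt MEFs had 55.6, 61.1 and 64.3 % and βerko MEFs 100, 97.6 and 100 %, the first 2 values being the strands of the same CpG. At -76, -63 and -57 bp it was 98.7, 90.5 and 97.3 % in wt and 95.9, 79.6 and 87.8 % in βerko MEFs. The mean of the 6 promoter positions, 77.9 % in wt and 93.5 % in βerko MEFs, therefore depended on the window. From 500 bp upstream to 100 bp downstream of the start the mean difference was -20.5 points, in place of 15.6 points.

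Within the first Ebf2 intron, 22 positions from +1171 to +1388 bp were unmethylated in both cell types, with means of 1.13 and 0.472 %. Beyond them, positions at +2454 and +2488 bp had 65.5 and 62.1 % in wt and 5.81 and 4.88 % in βerko MEFs. The next 27 positions, from +2892 to +4349 bp, had means of 84.8 and 73.4 %, with 8 lower by more than 20 points and none higher. Of the 24 lower positions, 19 lay within 4.5 kb of the start and the other 5 lay beyond 60 kb. At the CpG at +864 bp the strands disagreed within each library, with 11.8 and 85.7 % in wt and 28.7 and 93.8 % in βerko MEFs. The gap between the strands was thus present in both libraries, and its cause was not tested.

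The higher values of Ebf2 lay deep in the gene. From +75116 to +75933 bp, 20 positions in an intron had means of 70.2 % in wt and 89.6 % in βerko MEFs, with 7 higher and 1 lower by more than 20 points. The CpG at +75838 bp, in the first Ebf2 sequence above, was read on both strands, with 28.8 and 25.9 % in wt and 89.2 and 83.3 % in βerko MEFs. The nearer positions at +75829 and +75842 bp were higher in βerko MEFs as well, by 45.4 and 16.8 points. A CpG farther off, at +75819 bp, was lower in βerko MEFs on both strands, by 22.2 and 13.7 points.

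The 2 hypermethylated DMPs of Ebf2 lay in an intron at 67981094 and 67981100, the capitals of the last sequence above. No other hypermethylated DMP was found among the 533 positions, and the class made up 0.237 % of all covered positions. At 67981094, 25 of 137 reads were methylated in wt MEFs (18.2 %, exact 95 % interval 12.2 to 25.7 %) and 62 of 62 in βerko MEFs (100 %, 94.2 to 100 %). At 67981100, 17 of 135 reads were methylated in wt MEFs (12.6 %, 7.51 to 19.4 %) and 58 of 62 in βerko MEFs (93.6 %, 84.3 to 98.2 %). In wt MEFs no other DMP of the 10 genes was read as deeply. Both passed Fisher's exact test, as did 0.212 % of all positions in that direction, with adjusted p-values of 5.49e-28 and 4.95e-26. Here too only DMPs could pass, and 1755 of the 1960 hypermethylated DMPs did. The 0.212 % therefore mostly reflects how few positions were DMPs. The 2 DMPs of Ebf2 lie 6 bp apart on the same strand, so that the same reads may cover both. The nearest other covered position of the gene lay 4904 bp before them.

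**Figure D5:**
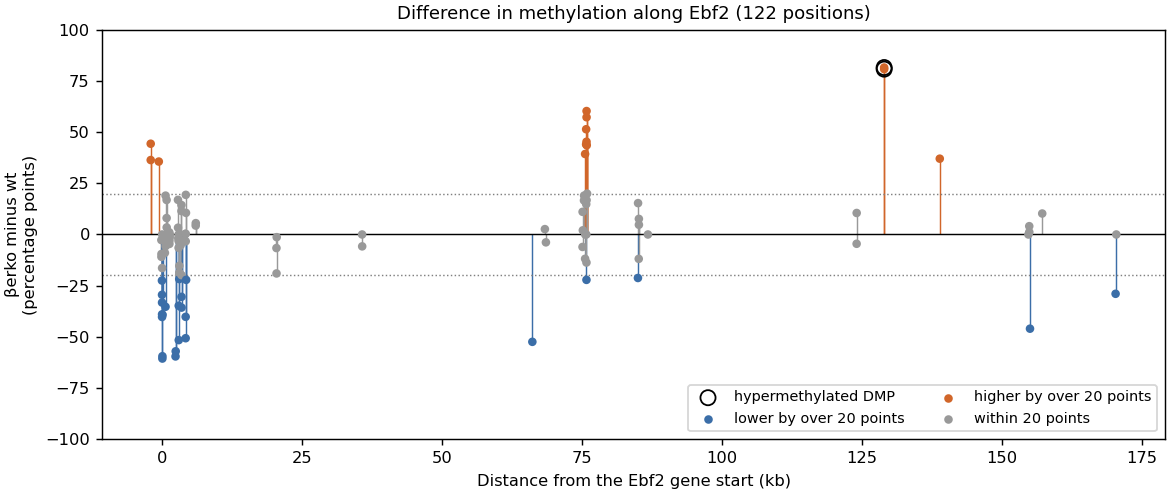
Difference in methylation, βerko minus wt (percentage points), at the 122 covered positions of Ebf2 against distance from the gene start (kb), with positions past 20 points in blue (lower) and orange (higher) and the 2 hypermethylated DMPs circled. Lower values crowd within 4.5 kb of the start, and 10 of the 13 higher positions lie beyond 60 kb.

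Ppargc1a, Adipoq, Fabp4 and Ucp1 were sparsely covered. Of their 17 positions, 13 were above 80 % in both cell types. Ppargc1a (ENSMUSG00000029167.7, chr5:51845488-51958964, minus strand) had 4 positions deep in the body, with 80.3, 90.9, 100 and 96.2 % in wt and 98.2, 88.9, 100 and 100 % in βerko MEFs. No position lay within 2 kb of any of its 3 annotated transcript starts.

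Adipoq (ENSMUSG00000022878.5, chr16:23146609-23158101, plus strand) had 2 promoter positions, with 54.0 % in wt and 84.5 % in βerko MEFs at -1988 bp and 100 and 88.9 % at -1859 bp. These differed in opposite directions. Its 4 body positions were between 93.9 and 100 % in both cell types. Fabp4 (ENSMUSG00000062515.2, chr3:10204347-10208576, minus strand) had 100 % in wt and 94.4 % in βerko MEFs at +165 bp, 98.2 and 100 % at +2513 bp, and 72.7 and 100 % at +2538 bp. The last, in a coding exon, was its only position past 20 points.

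Ucp1 (ENSMUSG00000031710.3, chr8:85814247-85822355, plus strand) was read from -39 to +7 bp around its start only. At -39 bp methylation was 33.3 % in both cell types, and the CpG at -5 bp had 93.3 and 100 % on its strands in wt and 100 % on each strand in βerko MEFs. The single body position, 85814254 in the 5′ UTR at +7 bp, had 26.9 % in wt and 0 % in βerko MEFs. With no read numbers for these positions, it cannot be said how many reads a value such as 33.3 % rests on.

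Further genes of the same processes were counted by the rule of at least 3 positions and a mean difference above 20 points, which 5.66 % of all promoters and 3.43 % of all bodies passed downwards and 1.04 % of each upwards. Of 15 other adipogenic regulators, 2 of 10 promoters and 2 of 15 bodies were lower and none was higher. The promoters were those of Zfp423, a factor of fat precursors (35 % in wt and 2.59 % in βerko MEFs over 47 positions), and Egr2, an early inducer (42.6 and 9.62 % over 6). The bodies were those of Klf4 (31.8 and 4.44 %) and Klf15 (29.1 and 5.81 %), Krüppel-like factors that act before and during differentiation. Of 8 inhibitors of fat cell formation, 3 of 6 promoters and 1 of 8 bodies were lower and none was higher. These promoters belonged to Gata2 (89.9 and 13.4 % over 3 positions), Wnt10b (34.5 and 7.44 % over 7) and Sirt1 (37.4 and 7.98 % over 5), and the body to Gata3 (77.3 and 51.3 %). Activators and inhibitors of the process were thus both among the genes with lower means.

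Of 22 genes of fat cell function, 3 had no covered position, none of 5 promoters passed 20 points, and 1 of 18 bodies did. This was Lipe, the hormone-sensitive lipase, with 73.9 % in wt and 42.3 % in βerko MEFs over 32 positions and 5 hypomethylated DMPs. Of 18 further genes of glucose transport and insulin signalling, 1 (Slc2a2) had no covered position, and none of 10 promoters or 17 bodies passed 20 points. These genes include some of the other glucose transporters, the insulin receptor and its substrates Irs1 and Irs2. Their median differences were -0.15 points for promoters and -1.08 points for bodies. No genotype test is possible for any of these lists.

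Methylation alone neither identifies the cells nor shows that the gene of ERβ was disrupted. Among 8 fibroblast genes, 3 promoters had at least 3 positions, and that of Col1a2, a collagen gene, had means of 93.6 % in wt and 48.3 % in βerko MEFs. Those of Fn1 (0.6 and 0 %) and Pdgfra (87.5 and 77.2 %) were within 20 points, as were all 7 bodies with enough positions. Of 4 genes of other cell types, only the promoter of Cdh1, an epithelial cadherin, had enough positions, with 28.7 % in wt and 10.2 % in βerko MEFs. The part of such differences between the cultures in the values of the 10 genes was not tested.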

How the data were processed

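The authors made 1 RRBS library of wt and 1 of βerko MEFs, each from 3 pooled batches of DNA. Reads were mapped to mm9 with the Genomatix Mining Station (version not given in the sources used here), and the submitters' processing notes name CASAVA 1.4. The authors deposited a table of cytosines read in both cell types with their percent methylation but no read numbers, and, for DMPs only, whole read counts per library with their RegionMiner annotation, which was not used. All 826937 positions were CpG cytosines of NCBIM37. Gene bodies and 2 kb upstream came from GENCODE gene models on NCBIM37, with promoter and body split at the gene start. Means were taken over positions with equal weight, 20 percentage points was the threshold, and gene regions needed at least 3 positions. DMP reads, of which the median was 23 in wt and 43 in βerko MEFs over all DMPs, were compared by two-sided Fisher's exact tests. Benjamini-Hochberg adjustment was made over all positions, untested ones at a p-value of 1, with a threshold of 0.05. Intervals are exact. The procedures were tried on simulated data with large preset differences and without PCR copies, which checks the code only. Named were all members, all Slc2a4 positions, all DMPs, the largest difference in each direction per member and region, and list genes past the threshold. Further positions, chosen after their values were seen, illustrate a stretch or a strand pair. Members and lists were chosen with earlier results of these data known. Alternatives changed the promoter window, the treatment of strands and neighbouring positions, and the thresholds. Software comprised SciPy 1.17.1, NumPy 2.4.6, matplotlib 3.10.9, pysam 0.24.0 and pandas 2.3.3 under Python 3.11.15.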

Additional observations from a re-analysis of the deposited data

How the results depend on the processing

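Means moved by less than 5 percentage points counted as stable. The mean difference over all promoter positions stayed near 0 under all alternatives but took either sign, from -3.45 points with the shortest window to 3.88 points with positions within 100 bp merged. The mean over body positions stayed negative with windows at every transcript start, merged strands, merged neighbours and removal of the most different position, and the median difference over body positions was 0 points. With positions within 100 bp merged, 11 stretches were lower and 6 higher by more than 20 points, and among regions with at least 3 positions 3 passed in place of 2. Without that minimum 3 regions passed unmerged and 4 merged. At a threshold of 10 points, 115 positions were lower and 39 higher, and at 30 points 61 were lower and 14 higher. In settings chosen after seeing the data, 45 positions were lower without Cebpa, 5 were higher without Ebf2, and without Cebpa, Pparg and Ebf2 3 were lower and 3 higher. DMPs below 10 % in one library and above 90 % in the other numbered 4 (hypomethylated) and 0 (hypermethylated). Among the means of single genes, 12 values moved by 5 points or more and 91 did not. Neither of the 2 means past 20 points, the bodies of Cebpa and Pparg, changed sign. The median difference over Cebpa body positions was -17.1 points, however, and did not pass 20 points. With windows at every transcript start, the Slc2a4 body mean moved from -2.13 to -11.8 points. That value rests only on the positions at +231, +240 and +257 bp, because the other body positions then counted as promoter. The Slc2a4 promoter mean in that setting was -0.24 points. The Ebf2 promoter mean changed sign, with 22.8 points when neighbours were merged and -20.5 points in the shortest window. Depth is unknown outside DMPs, which limits every other value. No paired analysis was possible because each cell type had 1 library.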
